A study of Mus musculus with 4 samples.

Results

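The 8 genes described here mark mesothelium and simple epithelium: Wt1, Msln, Upk3b, Upk1b, Lrrn4, Krt19, Krt8 and Krt18. They were chosen by symbol, matched through GENCODE M21, out of 55573 gene identifiers in each deposited file, and all 8 were found. They were measured by RNA sequencing in MEFs, fibroblasts cultured directly from mouse embryos. The groups were Dyrk2-KO cells, wild-type cells with Dyrk2 knocked down by siRNA (siDyrk2), wild-type cells with an siRNA that serves as negative control (siNeg) and untransfected wild-type cells (WT). All 4 groups, controls included, had 100 nM SAG for 24 h, an agonist of Smoothened that turns on Hedgehog signalling. The labels give no age or strain of the embryos and no design of the knockout allele. Each group held 1 library, so every difference below lies between libraries, has no replicate check and was not tested.

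Mesothelium is the simple squamous epithelium that lines the body cavities and covers the organs in them. It comes from mesoderm and keeps both epithelial features, such as simple keratins and apical surface proteins, and mesenchymal ones, such as vimentin. Wt1 encodes a zinc finger transcription factor of mesothelium, kidney podocytes and gonads. In simple epithelia the type II keratin KRT8 pairs with the type I keratins KRT18 or KRT19 to form filaments, and a type I keratin without its type II partner is degraded. Fibroblasts use vimentin filaments instead.

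All 8 are protein-coding genes, placed here on GRCm38. The annotation puts Wt1 (ENSMUSG00000016458) at 105126529 to 105173616 of chromosome 2, plus strand, and Lrrn4 (ENSMUSG00000043110) at 132868305 to 132880891 of chromosome 2, minus strand. It puts Msln (ENSMUSG00000063011) at 25748613 to 25754378 of chromosome 17, minus strand, and Upk3b (ENSMUSG00000042985) at 136038496 to 136046487 of chromosome 5, plus strand. It puts Upk1b (ENSMUSG00000049436) at 38773184 to 38800328 of chromosome 16, minus strand, and Krt19 (ENSMUSG00000020911) at 100140810 to 100148665 of chromosome 11, minus strand. Krt8 is ENSMUSG00000049382 and Krt18 is ENSMUSG00000023043, both on chromosome 15 and described further on. Only Krt8 overlaps another annotated gene, the lincRNA gene Gm36026 on the opposite strand, which was listed at 0 in all 4 libraries.

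Estimated depth was 19.979 to 23.926 M fragments per library (M, 1e+06). The unit is FPKM, which divides a gene's fragments by its exonic length in kilobases and by the library's fragments in M, so levels may be set beside each other between genes. Dyrk2 was at 0.57 FPKM in the Dyrk2-KO library against 6.59 in WT, and at 0.81 FPKM with siDyrk2 against 7.06 with siNeg. All 15 genes of the fibroblast marker list reached 1 FPKM, and Col1a1, a chain of type I collagen, stood between 2376.90 and 3275.54 FPKM. The Y-linked gene Ddx3y was at 8.28 FPKM in the Dyrk2-KO library and no higher than 0.02 FPKM elsewhere, so the Dyrk2-KO culture held male cells and differs from the rest in that way too. Xist, expressed from the inactive X chromosome of female cells, was at 26.37 FPKM in the Dyrk2-KO library and at 27.48 to 37.05 FPKM in the other 3. The Dyrk2-KO library thus held markers of both male and female cells. In the knockout comparison genotype and culture origin cannot be told apart.

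All 8 genes were scarce. The highest value was 4.27 FPKM, for Upk3b with siDyrk2, and the lowest was 0.19 FPKM, for Krt18 in the Dyrk2-KO library. In bulk RNA a small number of cells with much of a transcript and many cells with little of it cannot be told apart, and neither can fewer cells and less RNA per cell. The order of levels began the same way in all 4 libraries, with Upk3b first, Krt19 next, then Upk1b and then Msln. Neighbours among these 4 genes overlapped in their 95% counting intervals in each library, so their order is not settled at this depth. Wt1 and Krt8 stood among the last 3 throughout. Only 5 of the 8 genes reached 1 FPKM in at least 1 library, the filter used for comparisons across all genes. Msln, Upk3b, Upk1b and Krt19 did so in every library, and Lrrn4 did so through siNeg alone. Wt1, Krt8 and Krt18 stayed below it everywhere.

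**Figure D1:**
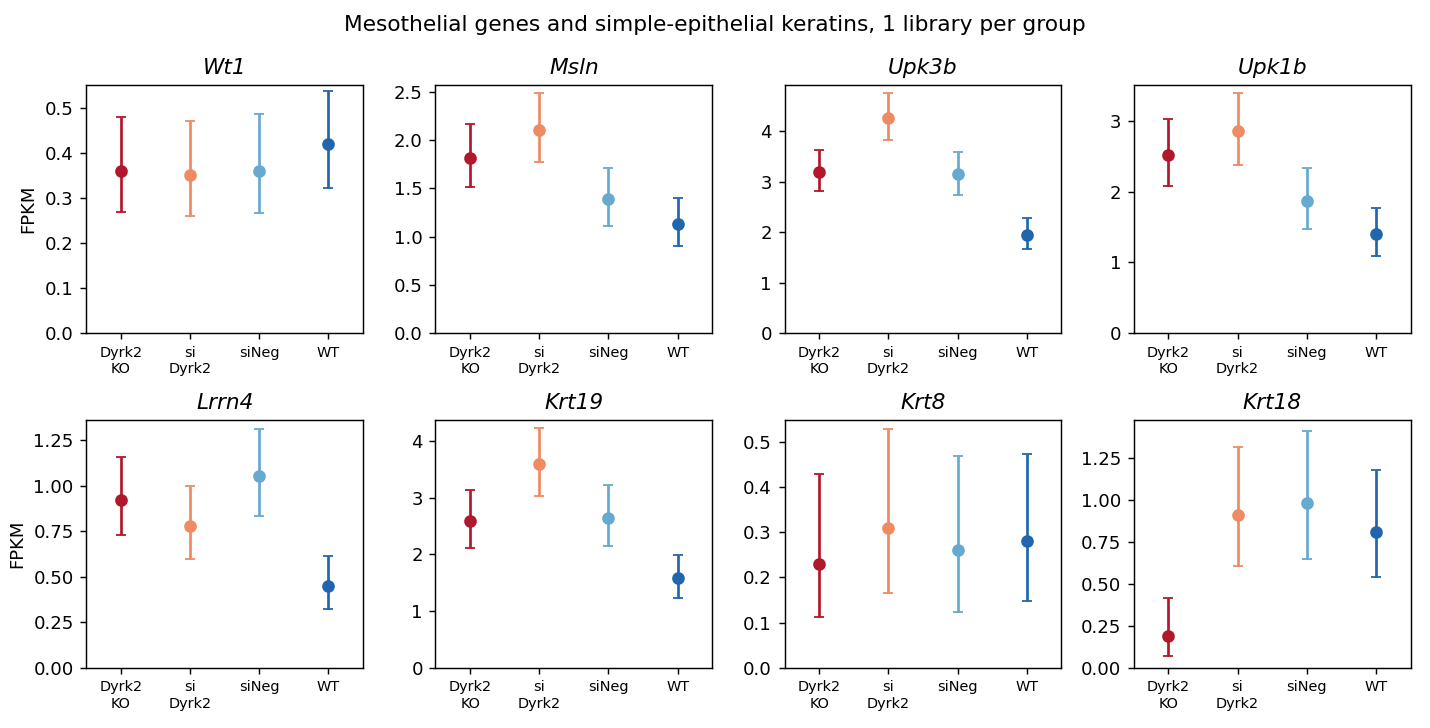
Level of each of the 8 genes in FPKM (vertical axes, each starting at 0) in the 4 libraries, 1 library per group; bars are exact 95% Poisson counting intervals. WT is the lowest library for Msln, Upk3b, Upk1b, Lrrn4 and Krt19, and the Dyrk2-KO library is the lowest for Krt18, at 0.19 FPKM.

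The comparison of Dyrk2-KO with WT addressed what loss of the kinase DYRK2 does in SAG-treated fibroblasts. The 4 mesothelial surface genes and Krt19 were higher in the Dyrk2-KO library, by 1.61 to 2.04-fold, while Krt18 was 4.26-fold lower. Folds are ratios of deposited FPKM, and brackets hold exact 95% binomial counting intervals on estimated fragments, which cover counting error only. Of the 8 genes 5 had an interval above 1, against 19.1% of the 12817 genes past the filter. Krt18 alone had an interval below 1, against 26.2% of those genes. Wt1, Krt8 and Krt18 are not among the 12817 genes, here or in the comparisons that follow, so these shares describe genes with higher levels. All 5 genes with an interval above 1 were also at least 1.5-fold higher, a size reached with such an interval by 3.99% of all genes, and Krt18 was lower by that rule, as were 5.27%. Both rules with an interval were set after the values had been seen.

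Msln encodes the precursor of mesothelin, a lipid-anchored surface glycoprotein that binds MUC16. It was at 1.82 FPKM in the Dyrk2-KO library, against 1.13 FPKM in WT, a 1.61-fold higher value (1.21 to 2.15). The uroplakins are membrane proteins first known from the plaques of bladder urothelium, and Upk3b and Upk1b are also mesothelial markers. Upk3b was at 3.20 FPKM in the Dyrk2-KO library, against 1.95 FPKM in WT (1.64-fold, 1.34 to 2.01). Upk1b, which encodes a tetraspanin, was at 2.52 FPKM in the Dyrk2-KO library, against 1.40 FPKM in WT (1.80-fold, 1.32 to 2.45). Lrrn4, which encodes a membrane protein with leucine-rich repeats, was at 0.92 FPKM in the Dyrk2-KO library, against 0.45 FPKM in WT (2.04-fold, 1.38 to 3.09). For each of these genes WT was also below siNeg and siDyrk2. The transcription factor gene Wt1 did not share this direction. It was at 0.36 FPKM in the Dyrk2-KO library, against 0.42 FPKM in WT, a ratio of 0.857 (0.582 to 1.28).

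Among the keratins, Krt19 was at 2.59 FPKM in the Dyrk2-KO library, against 1.58 FPKM in WT (1.64-fold, 1.20 to 2.25). Krt8 was at 0.23 FPKM in the Dyrk2-KO library, against 0.28 FPKM in WT, from 10 and 13 estimated fragments. The interval of that ratio, 0.330 to 2.08, spans both directions. Krt18 was at 0.19 FPKM in the Dyrk2-KO library, against 0.81 FPKM in WT. These were 6 fragments in the Dyrk2-KO library and 28 in WT, and the interval of the 4.26-fold lower value ran from 1.73 to 12.6. The other libraries held 28 Krt18 fragments each, so the Dyrk2-KO library stood alone.

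On the scale of log2(FPKM + 1), which understates differences of scarce genes, none of the 5 genes past the filter was 2-fold different in the Dyrk2-KO library, nor 1.5-fold. Across all 12817 genes 0.57% were at least 2-fold higher and 1.21% at least 2-fold lower on that scale. At 1.5-fold these shares were 2.58% and 4.04%. The median log2 ratio of the 5 genes was 0.48 and that of all 8 was 0.40, beside -0.02 over all genes past the filter.

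**Figure D2:**
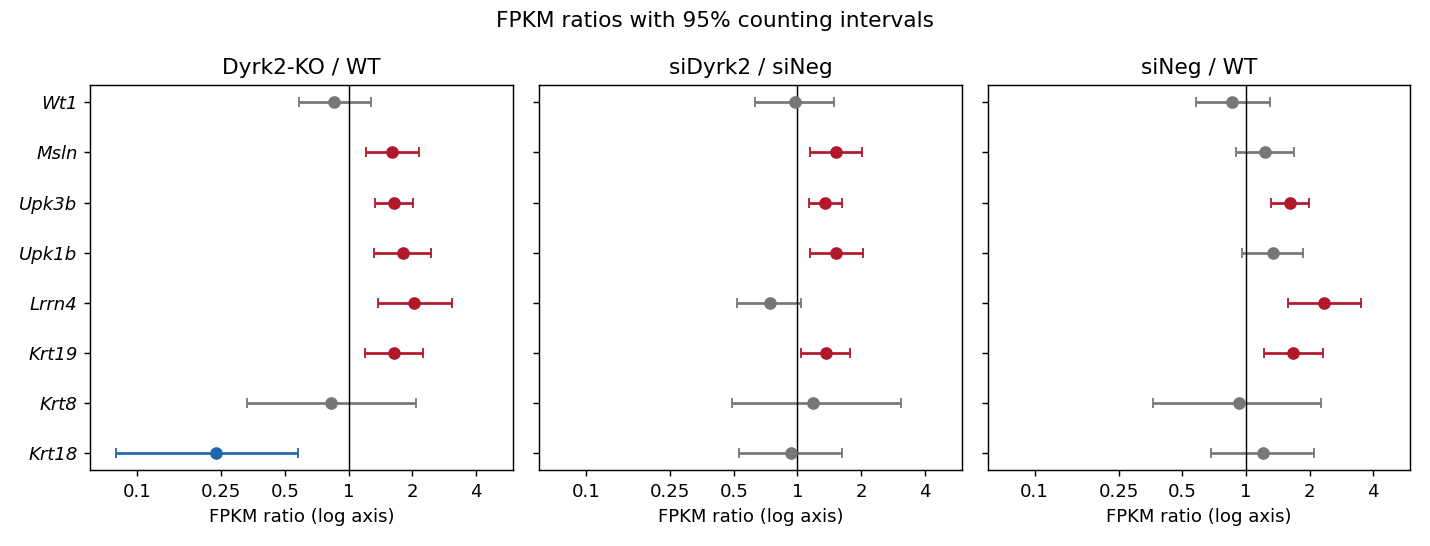
FPKM ratio of each gene (horizontal axes, logarithmic) in the 3 comparisons, with exact 95% counting intervals; red marks an interval above 1, blue an interval below 1 and grey an interval that spans 1. Red points number 5 for Dyrk2-KO over WT, 4 for siDyrk2 over siNeg and 3 for siNeg over WT, and Krt18 in the Dyrk2-KO library is the only blue point.

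The comparison of siDyrk2 with siNeg addressed a short-term lowering of Dyrk2 in wild-type cells. Msln, Upk3b, Upk1b and Krt19 were again higher, by 1.36 to 1.52-fold, and Lrrn4, Krt18, Krt8 and Wt1 had intervals that span 1. Thus 4 of the 8 genes had an interval above 1, against 28.3% of all genes past the filter, and 0 had one below 1, against 23.1%. Of the 4, Msln and Upk1b reached 1.5-fold, against 5.66% of all genes, and 0 were lower by that rule, against 3.87%; both fell short of it under either other scaling of the libraries.

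Msln was at 2.11 FPKM with siDyrk2, against 1.39 FPKM with siNeg (1.52-fold, 1.15 to 2.02). Upk1b was at 2.85 FPKM with siDyrk2, against 1.87 FPKM with siNeg (1.52-fold, 1.14 to 2.05). Upk3b was at 4.27 FPKM with siDyrk2, against 3.15 FPKM with siNeg (1.36-fold, 1.14 to 1.62). The siDyrk2 library was the highest of all 4 for these genes and for Krt19. Krt19 was at 3.59 FPKM with siDyrk2, against 2.64 FPKM with siNeg (1.36-fold, 1.04 to 1.77). Lrrn4 went the other way, at 0.78 FPKM with siDyrk2, against 1.05 FPKM with siNeg, a ratio of 0.743 (0.521 to 1.05).

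Krt18 was nearly the same with both siRNAs, at 0.91 FPKM with siDyrk2, against 0.98 FPKM with siNeg, a ratio of 0.929 (0.531 to 1.63). Whether this differs from the knockout comparison was not tested, since each ratio rests on 1 library per group. Krt8 was at 0.31 FPKM with siDyrk2, against 0.26 FPKM with siNeg, a ratio of 1.19 (0.490 to 3.08). Wt1 was at 0.35 FPKM with siDyrk2, against 0.36 FPKM with siNeg (ratio 0.972), with an interval that spans 1. On FPKM + 1 again 0 of the 5 genes past the filter reached 2-fold or 1.5-fold, where 0.749% of all genes were at least 2-fold higher and 0.796% lower, and 3.77% and 2.73% at 1.5-fold. The median log2 ratio was 0.34 for the 5 genes and 0.20 for all 8, beside 0.02 over all genes. Lrrn4 (-0.20) is among the 5 through siNeg alone, a library of this comparison. The median of the 5 is thus not free of that choice.

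The comparison of siNeg with WT set both controls with intact Dyrk2 side by side. It shares WT with the knockout comparison and siNeg with the siRNA comparison. Upk3b, Krt19 and Lrrn4 were higher with siNeg than in WT, by 1.62 to 2.33-fold, close to their 1.64 to 2.04-fold in the Dyrk2-KO library. Upk3b was at 3.15 FPKM with siNeg, against 1.95 FPKM in WT (1.62-fold, 1.31 to 1.98). Krt19 was at 2.64 FPKM with siNeg, against 1.58 FPKM in WT (1.67-fold, 1.22 to 2.31). Lrrn4 was at 1.05 FPKM with siNeg, against 0.45 FPKM in WT (2.33-fold, 1.58 to 3.51). Intervals above 1 were thus found for 3 of the 8 genes, all 3 of them at least 1.5-fold higher, against 23% and 2.25% of all genes under the same rules. Intervals below 1 were found for 0, against 23.6%, and 0 were 1.5-fold lower with one, against 4.06%.

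Msln, at 1.39 FPKM with siNeg and 1.13 FPKM in WT, had an interval that spans 1 (0.896 to 1.68). So had Upk1b, at 1.87 FPKM with siNeg and 1.40 FPKM in WT (0.954 to 1.87). Krt18 was at 0.98 FPKM with siNeg and 0.81 FPKM in WT, Krt8 at 0.26 and 0.28 FPKM and Wt1 at 0.36 and 0.42 FPKM in the same order. Differences past 1.5-fold in these genes therefore also occurred between libraries with intact Dyrk2. On FPKM + 1 0 of 5 genes reached 2-fold or 1.5-fold, where 0.367% of all genes were at least 2-fold higher and 0.562% lower, and 1.41% and 2.37% at 1.5-fold. The median log2 ratio was 0.49 for the 5 genes and 0.21 for all 8, beside -0.01 over all genes. Lrrn4 has the largest of the 5 ratios (0.50) and passed the filter through siNeg alone, a library of this comparison. The median of the 5 is thus not free of that choice.

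The keratin partners were then compared within each library. Krt8 over Krt18 was 1.21 in the Dyrk2-KO library (0.403 to 4.09), 0.341 with siDyrk2 (0.162 to 0.680), 0.265 with siNeg (0.114 to 0.556) and 0.346 in WT (0.162 to 0.680). The type II gene was thus below its type I partner in the 3 libraries with a wild-type genotype, and the interval of the Dyrk2-KO library overlaps theirs. Krt19 exceeded Krt8 in every library, by 11.3-fold in the Dyrk2-KO library, 11.6-fold with siDyrk2, 10.2-fold with siNeg and 5.64-fold in WT. Among other type II keratins, Krt80 was at 0.45 FPKM in the Dyrk2-KO library, 0.82 FPKM with siDyrk2, 0.20 FPKM with siNeg and 0.35 FPKM in WT, above Krt8 in all libraries but siNeg. Krt7 stood at 0.18 to 0.28 FPKM and Krt5 at 0.04 FPKM or less.

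Krt8 and Krt18 are neighbours on chromosome 15, at 101996698 to 102004482 on the minus strand and at 102028180 to 102032027 on the plus strand (GRCm38). They lie 23697 bases apart with 0 other annotated genes between them. Their promoters are shown because Krt18, but not Krt8, had an interval below 1 for Dyrk2-KO against WT. The intervals of these 2 ratios overlap, so a difference between the neighbours is not settled. The promoter of Upk3b is shown because it is the highest of the 8 genes. The sequences run from 250 bases before the RefSeq start to 50 after it (GRCm38.p6), with any match to the motifs searched in capitals.
Krt18 (chr15:102027966-102028265, plus strand): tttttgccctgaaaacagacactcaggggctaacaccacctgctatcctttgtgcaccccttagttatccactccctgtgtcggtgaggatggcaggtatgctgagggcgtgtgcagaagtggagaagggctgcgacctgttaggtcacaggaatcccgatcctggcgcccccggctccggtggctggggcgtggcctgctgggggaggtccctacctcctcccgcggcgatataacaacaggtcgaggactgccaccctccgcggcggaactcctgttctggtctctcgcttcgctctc
Krt8 (chr15:102004293-102004592, minus strand): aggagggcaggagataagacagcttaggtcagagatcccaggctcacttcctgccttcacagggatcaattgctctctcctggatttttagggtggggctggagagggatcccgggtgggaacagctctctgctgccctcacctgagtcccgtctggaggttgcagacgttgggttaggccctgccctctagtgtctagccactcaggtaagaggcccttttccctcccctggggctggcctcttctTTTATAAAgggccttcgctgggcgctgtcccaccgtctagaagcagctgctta
Upk3b (chr5:136038246-136038545, plus strand): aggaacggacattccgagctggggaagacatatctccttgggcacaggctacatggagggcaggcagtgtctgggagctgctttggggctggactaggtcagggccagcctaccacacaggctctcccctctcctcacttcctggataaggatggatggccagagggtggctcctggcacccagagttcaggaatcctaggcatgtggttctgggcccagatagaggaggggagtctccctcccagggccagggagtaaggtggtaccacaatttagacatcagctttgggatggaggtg

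Both strands were searched for 5 motifs: the TATA box, spelled TATAAA; the GC box, spelled GGGCGG; the CAAT box, spelled CCAAT; the AP-1 motif, spelled TGANTCA; and the GLI motif, spelled GACCACCCA. Krt8 held TATAAA on both strands, in overlapping matches, as did 13.6% of 32851 promoters of the same length on at least 1 strand. The Krt8 matches span the RefSeq start itself, at -3 to 2 and -1 to 4 from it. Whether they act as a TATA box was not tested. The Krt18 and Upk3b windows, and that of Lrrn4, held none of the 5. Among all promoters the GC box letters were found in 35.7%, those of the CAAT box in 37.4%, those of AP-1 in 7.81% and those of GLI in 0.253%. The RefSeq table gave promoters for 4 of the 8 genes.

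Expressed genes around the pair did not share the ratio of Krt18. Within 150000 bases on either side 6 other genes reached 1 FPKM, and none was lower in the Dyrk2-KO library by an interval below 1. Igfbp6, which encodes a binding protein of insulin-like growth factors, was at 233.48 FPKM in the Dyrk2-KO library, against 160.00 FPKM in WT. Eif4b, a translation initiation factor gene, was at 129.65 FPKM in the Dyrk2-KO library, against 123.46 FPKM in WT. Near copies could draw reads from the keratins. Krt18 had 4 processed pseudogenes with at least 80% identity over at least 200 bases, and all 4 were listed at 0 in each library. The pseudogene Krt8-ps, 98.6% identical to Krt8 over 941 bases, was at 0.04 FPKM in WT and listed at 0 elsewhere, so the small Krt8 counts are less certain. The other 6 genes had 0 such copies.

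Of 54 keratin genes in the annotation 23 were above 0 FPKM in at least 1 library, and only Krt19 and Krt10 reached 1 FPKM. Krt10, a type I keratin of differentiated epidermis, was at 1.34 FPKM in the Dyrk2-KO library, against 1.29 FPKM in WT, and at 1.34 FPKM with siDyrk2, against 1.02 FPKM with siNeg. Krt19 was lowest in WT and Krt10 with siNeg. The counting intervals of Krt10 span 1 in all 3 comparisons, so its order over the libraries is not settled. Vim, the vimentin gene, stood at 575.69 FPKM in the Dyrk2-KO library, against 507.21 FPKM in WT, and at 615.97 FPKM with siDyrk2, against 409.94 FPKM with siNeg. Vimentin thus far exceeded each keratin in every library.

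**Figure D3:**
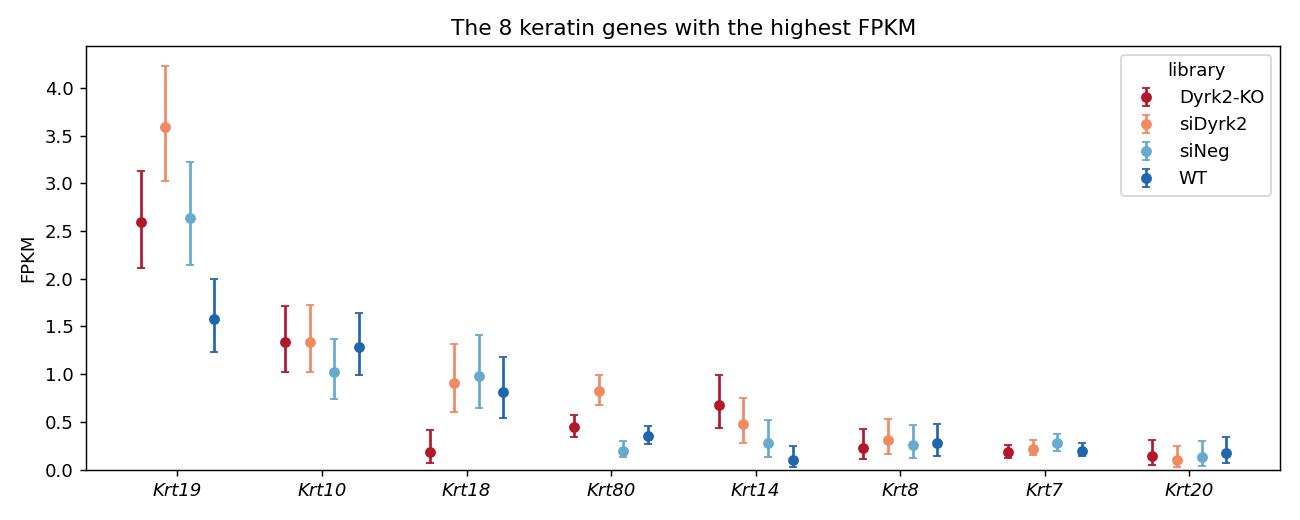
FPKM (vertical axis) of the 8 keratin genes with the highest values, in the 4 libraries, 1 per group; bars are exact 95% Poisson counting intervals. Krt19 is the highest keratin in each library and Krt18 is set apart in the Dyrk2-KO library, at 0.19 FPKM.

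Other mesothelial genes were not uniformly higher. Of 20 such genes 7 reached 1 FPKM, 5 of them higher and 2 lower in the Dyrk2-KO library, with a median log2 ratio of 0.17. With siDyrk2, 4 were higher and 3 lower than with siNeg (median 0.07), and with siNeg 2 were higher and 5 lower than in WT (median -0.07). Of all genes past the filter 43.7%, 54.3% and 48.3% were higher in these comparisons, in the same order. None of the 7 was 2-fold different in any comparison. Over all 20 genes, scarce ones included, 7 had a counting interval above 1 and 2 below 1 in the Dyrk2-KO library, 4 and 2 with siDyrk2 against siNeg, and 5 and 1 with siNeg against WT. By FPKM alone 10 of the 20 were higher and 7 lower with siNeg than in WT, unlike among the 7 genes past the filter. Of all genes past the filter 19.1% had an interval above 1 and 26.2% below 1 in the Dyrk2-KO library. These shares were 28.3% and 23.1% with siDyrk2 against siNeg, and 23% and 23.6% with siNeg against WT. The 5 of 20 above 1 with siNeg against WT are thus near the share of all genes. Muc16, whose few fragments are uncertain because FPKM was rounded, is counted above 1 in both comparisons with WT. Anxa8, an annexin gene, was at 6.10 FPKM in the Dyrk2-KO library, against 4.78 FPKM in WT, and at 5.20 FPKM with siDyrk2, against 3.14 FPKM with siNeg. Its siNeg value was also below WT, a ratio of 0.657 (0.521 to 0.827), so siNeg was the low library. Nkain4, which encodes a protein that interacts with the sodium pump, was at 7.29 FPKM with siDyrk2, against 4.44 FPKM with siNeg. WT stood between them at 5.57 FPKM.

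The caveolin gene Cav1 was the highest of the list, at 154.72 FPKM with siDyrk2, against 100.35 FPKM with siNeg. In both comparisons of lowered Dyrk2, Tbx18, a T-box gene of epicardium, was lower: 4.05 FPKM in the Dyrk2-KO library, against 5.92 FPKM in WT, and 4.06 FPKM with siDyrk2, against 5.61 FPKM with siNeg. Aldh1a2, which makes retinoic acid, was at 3.01 FPKM in the Dyrk2-KO library, against 4.30 FPKM in WT. Some markers often used to define mesothelium were near 0: calretinin (Calb2) had 1 fragment in WT and 0 in the other 3 libraries, podoplanin (Pdpn) stood at 0.11 FPKM or less and Muc16 at 0.02 FPKM or less. Taking 3 fragments as the limit that a count of 0 allows, Calb2 could stand at up to 0.0861 FPKM with siNeg, the shallowest library. Itln1 was listed at 0 in all 4 libraries. Other genes of the list were not near 0, and 7 of the 20 reached 1 FPKM. Nkain4 stood at 4.44 to 7.29 FPKM and Anxa8 at 3.14 to 6.10 FPKM, while Bnc1 stood lower, at 0.22 to 0.42 FPKM.

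Most markers of a full epithelium were near 0. Of 27 epithelial genes 12 were listed at 0 in every library, among them Grhl2 and Esrp1, and only Cdh3 reached 1 FPKM. Epcam, an epithelial adhesion gene, was at 0.06 FPKM in the Dyrk2-KO library, against 0.04 FPKM in WT, and listed at 0 with both siRNAs. Cdh1, E-cadherin, was at 0.05 to 0.15 FPKM. Cdh3, P-cadherin, was at 35.28 FPKM in the Dyrk2-KO library, against 41.07 FPKM in WT, and at 43.42 FPKM with siDyrk2, against 47.44 FPKM with siNeg. The related uroplakins Upk2 and Upk3a were listed at 0 in all 4 libraries. Among 16 genes of kidney and gonad, where Wt1 also acts, the 5 past 1 FPKM had median log2 ratios between -0.01 and 0.08 in the 3 comparisons. Of these 5 genes 2 were higher and 3 lower in the Dyrk2-KO library than in WT, with Emx2 1.37-fold higher and Synpo 1.70-fold lower. Among all genes past the filter 43.7% were higher and 55.6% lower in that comparison.

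Leukocyte markers also differed between the libraries. Of 11 such markers 9 reached 1 FPKM, and all 9 were higher in the Dyrk2-KO library than in WT, with siDyrk2 than with siNeg and with siNeg than in WT. Their median log2 ratios were 0.84, 0.23 and 0.36. Of all genes past the filter 43.7%, 54.3% and 48.3% were higher in these 3 comparisons, in the same order. Upk3b, Upk1b, Msln and Krt19 had FPKM ratios above 1 in the same 3 comparisons, Msln and Upk1b with intervals that span 1 for siNeg against WT, while Lrrn4 was lower with siDyrk2 than with siNeg. The summed level of the 11 markers was 493.23 FPKM in the Dyrk2-KO library, 337.88 FPKM with siDyrk2, 271.76 FPKM with siNeg and 238.48 FPKM in WT, and 0 of them were at 0 in all libraries. Most of this sum was Lyz2, a lysozyme gene of macrophages, at 328.57 FPKM in the Dyrk2-KO library, against 152.06 FPKM in WT. The summed level of the 8 genes described here was 11.83 FPKM in the Dyrk2-KO library, 15.17 FPKM with siDyrk2, 11.70 FPKM with siNeg and 8.02 FPKM in WT. WT was lowest in both sums, but the Dyrk2-KO library was highest in the leukocyte sum and siDyrk2 in the other. The part of the makeup of the cultures in these ratios was not tested.

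**Figure D4:**
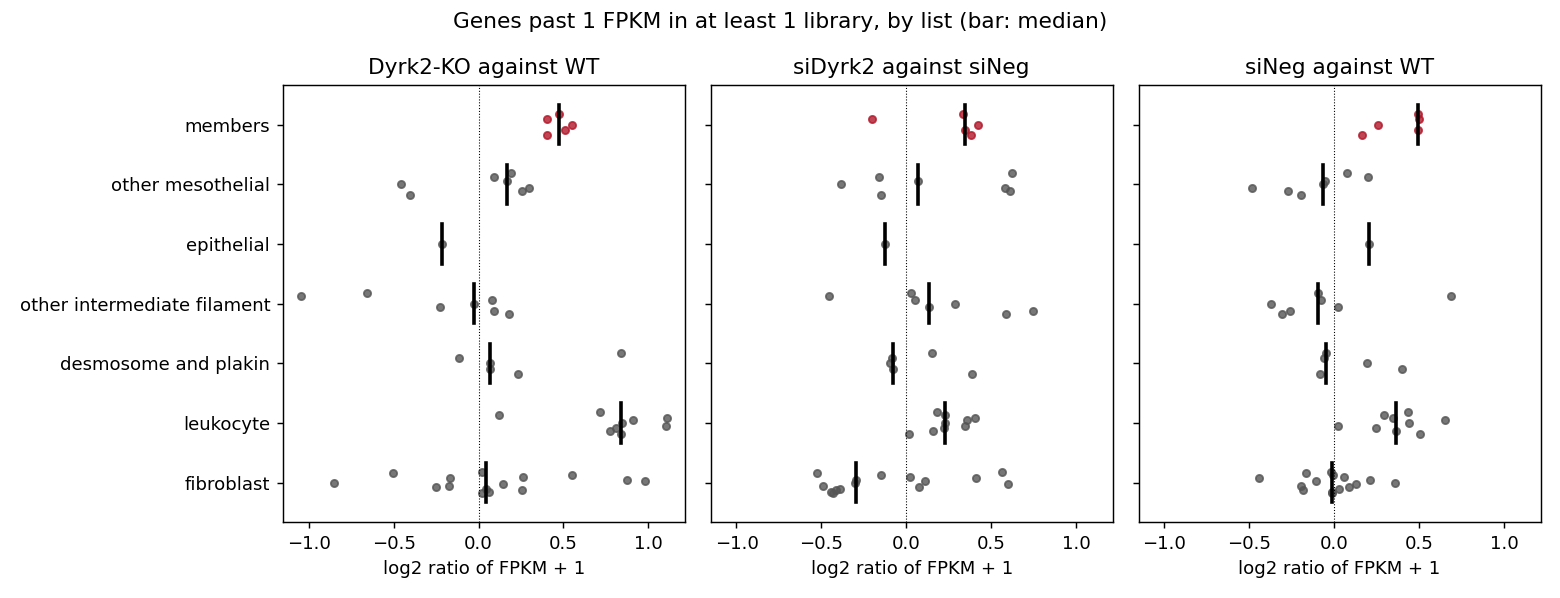
Log2 ratio of FPKM + 1 (horizontal axes) for the genes of 7 lists that reached 1 FPKM in at least 1 library, in the 3 comparisons; each point is a gene and each bar a median. The 5 member genes have medians of 0.48, 0.34 and 0.49 and the leukocyte markers of 0.84, 0.23 and 0.36. Lrrn4 is among the 5 through siNeg alone.

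Fibroblast markers had median log2 ratios of 0.05 in the Dyrk2-KO library, -0.29 with siDyrk2 and -0.01 with siNeg. These medians join opposite directions. In the Dyrk2-KO library 9 of the 15 had an interval above 1 and 5 below 1, against 19.1% and 26.2% of all genes. With many fragments an interval excludes 1 even at a small ratio, as for Col1a1 (1.01-fold) and Col1a2 (1.05-fold). These counts of abundant genes therefore do not give sizes, and the shares include many scarcer genes. Dcn was 1.98-fold and Lum 1.84-fold higher there than in WT, and Thy1 was 1.81-fold lower. Of 6 genes of transcription factors that repress the epithelial state, 4 were lower in the Dyrk2-KO library than in WT (median -0.35), where 55.6% of all genes past the filter were lower. With siDyrk2 all 6 were lower than with siNeg (median -0.32), 5 of them with an interval below 1, where 45% of all genes were lower. With siNeg 4 of 6 were lower than in WT (median -0.01), where 51.0% of all genes were lower. Of the 6, 2 had an interval below 1 and 2, Snai1 and Snai2, had one above 1. Snai1 was at 16.84 FPKM in the Dyrk2-KO library, against 26.53 FPKM in WT, and at 26.81 FPKM with siDyrk2, against 37.67 FPKM with siNeg. The siDyrk2 value of Snai1 was thus close to that of WT, and siNeg was the high library. Twist1 was at 104.77 FPKM in the Dyrk2-KO library, against 71.22 FPKM in WT. None of the 6 was 2-fold different, and Twist1 and Twist2 also stand in the fibroblast list. Desmosome and plakin genes had medians of 0.07, -0.08 and -0.05 in the 3 comparisons, over 5 genes past the filter.

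Likeness of pattern was measured as the Euclidean distance between profiles of log2(FPKM + 1) over the 4 libraries, each centred on its own mean, among 11128 other protein-coding genes. With only 4 libraries, the nearest genes are a description. P2rx4, an ATP-gated channel gene, was nearest to both Upk3b (distance 0.0209) and Krt19 (0.0341). It was at 7.64 FPKM in the Dyrk2-KO library, 9.88 FPKM with siDyrk2, 7.48 FPKM with siNeg and 5.15 FPKM in WT. Nearest to Msln was Cln3 (0.0273), to Upk1b Rac2 (0.0402) and to Lrrn4 Rep15 (0.0690). The mean profile of the 5 genes was nearest to Usp18 (0.0301), Sncaip (0.0428) and Lgmn (0.0584).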

How the data were processed

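Each of 4 cultures gave 1 polyA-selected, stranded library, per the labels' protocols. Tools listed are HISAT2 2.0.1 and cutadapt 1.9.1, with build GRCm38, per the submitters' processing notes. Which program and annotation the authors counted with is not given in the sources used here. Per the file headers the authors deposited FPKM, with 2 decimals, beside exonic lengths. FPKM times length in kilobases summed to 1e+06 in each file within rounding.

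Of 55573 identifiers 55480 matched GENCODE M21. Depth was estimated as the smallest that put genes of at most 200 bases on whole fragments, given rounding to 2 decimals, which it did for 100% of 316 to 377 genes with at most 30 fragments. Fragments of each gene were rounded from this depth, and intervals are 95% Clopper-Pearson (ratios) or Poisson (levels). Both steps were tested on simulated libraries. Python 3.11.15, numpy 2.4.6, pandas 2.3.3 and scipy 1.17.1 were used.

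Log2 ratios are of FPKM + 1, a pseudocount of 1 FPKM, over the 12817 genes that reached 1 FPKM somewhere. No test was made, each group being 1 library. Alternatives were pseudocounts of 0.1 and 5 FPKM, no filter, a filter of 10 FPKM, median-of-ratios and trimmed-mean scaling, and protein-coding genes alone.

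The named genes were the 8 members, Dyrk2, other keratins past 1 FPKM, the 2 highest and 2 most different genes of each list, and the 3 nearest profiles of each member; not every such gene is named. Gli1, at 0.24 FPKM in the Dyrk2-KO library against 28.81 FPKM in WT, and at 2.25 FPKM with siDyrk2 against 30.17 FPKM with siNeg, was a check of the pathway. Krt7, Krt5, Krt80, Krt8-ps, Igfbp6, Eif4b, Ddx3y, Xist and the markers given as near 0 were named after their values had been seen. The members and lists were chosen with earlier results of these data known. RefSeq (GRCm38.p6) gave promoters.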

Additional observations from a re-analysis of the deposited data

How the results depend on the processing

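No paired analysis was possible because each group holds 1 library. Median-of-ratios and trimmed-mean scaling gave the same counts of the 8 genes with an interval above or below 1 in all 3 comparisons; these counts were chosen after seeing the data. With either scaling 0 genes, not 2, were at least 1.5-fold higher on FPKM with an interval above 1 for siDyrk2 against siNeg. A pseudocount of 0.1 FPKM put 5 member genes past 1.5-fold for Dyrk2-KO against WT and 3 for siNeg against WT, with 1 past 2-fold there. Without the filter 1 passed 1.5-fold for Dyrk2-KO against WT, which is Krt18. The median of the member genes was 0.21 for Dyrk2-KO and 0.15 for siNeg, each against WT, with a pseudocount of 5 FPKM, and 0.21 for siNeg against WT without the filter.

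Counts over all genes moved more. For Dyrk2-KO against WT the 2-fold count was 607 with a pseudocount of 0.1 FPKM, 22 with 5 FPKM, 56 with a filter of 10 FPKM and 112 with protein-coding genes. For siDyrk2 against siNeg these were 506, 33, 57 and 86, and for siNeg against WT 340, 11, 15 and 17. The 1.5-fold counts with pseudocounts of 0.1 and 5 FPKM and a filter of 10 FPKM were 1477, 201 and 248 for Dyrk2-KO against WT, 1490, 216 and 298 for siDyrk2 against siNeg, and 1090, 76 and 130 for siNeg against WT. With protein-coding genes they were 509 for siDyrk2 against siNeg and 227 for siNeg against WT. A filter of 10 FPKM left 0 member genes, so it gave them no value. The alternatives change how low values are treated or which genes are kept. Protein-coding genes alone were 11133 of 12817, while the 2-fold count for siNeg against WT went from 119 to 17. The cause of these shifts was not tested. Depth limits the keratin pair, with 10 to 13 fragments of Krt8 per library and 6 of Krt18 in the Dyrk2-KO library.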

Other observations

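Several genes related to the 8 also differed between the libraries, and are given here after their values were seen. Ppl, which encodes periplakin, a linker of keratin filaments to desmosomes, was at 1.18 FPKM in the Dyrk2-KO library, against 0.22 FPKM in WT (5.36-fold, 3.76 to 7.97), and at 0.31 FPKM with siDyrk2, against 0.18 FPKM with siNeg. Krt14, a type I keratin of basal epidermis, was at 0.68 FPKM in the Dyrk2-KO library, against 0.10 FPKM in WT, from 26 fragments in the Dyrk2-KO library and 4 in WT. Krt80 was at 0.82 FPKM with siDyrk2, against 0.20 FPKM with siNeg (4.10-fold, 2.62 to 6.46), while WT stood between them at 0.35 FPKM.

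The claudin gene Cldn15 was at 0.67 FPKM in the Dyrk2-KO library, against 0.10 FPKM in WT, and at 0.72 FPKM with siDyrk2, against 0.42 FPKM with siNeg. Gpm6a, a membrane glycoprotein gene, was at 0.46 FPKM in the Dyrk2-KO library and 0.68 FPKM with siNeg, against 0.20 FPKM in WT. Lrrn4cl, a gene named for its likeness to Lrrn4, had 27.71 FPKM with siDyrk2, against 15.59 FPKM with siNeg, and 37.63 FPKM in the Dyrk2-KO library, against 30.72 FPKM in WT. Its low value with siNeg is the reverse of Lrrn4, which was highest there.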
